A study of Homo sapiens with 20 samples.

Results

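CRYAB (alpha-B-crystallin), HSPB1 (HSP27) and HSPB8 (HSP22) are small heat shock proteins, BAG3 is the co-chaperone that HSPB8 binds, and HSF1 and HSF2 are transcription factors of the heat shock response. These 6 genes of the 26038 in the deposited tables were chosen by symbol. CRYAB was chosen as a chaperone that stood higher a day after heating than in unheated cells. Its level in those groups was thus used for the choice and is described below without a test. The other 5 genes were taken as its family, its partner and its regulators, with the same comparison already known.

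PolyA RNA was sequenced from MHCC-97H cells, an established human line of hepatocellular carcinoma, as 4 groups with 5 libraries each. All cells spent 15 minutes in a water bath and were then kept for 24 hours in an incubator. In the first experiment, cells of genotype WT were bathed at 37 °C (R-37) or at 47 °C (R-47). In the second, WT cells (NC) and cells labelled NFS1 knockdown, made with shRNA, were both bathed at 47 °C. The group of NFS1 knockdown cells is called NFS1 below, as in the sample titles. NFS1 encodes a cysteine desulfurase of iron-sulfur cluster assembly. The second experiment had no group at 37 °C among the samples analysed here. Whether the NC cells carried a control shRNA, how many shRNAs were used and whether each group was 1 culture is not stated in the labels. P-values therefore measure the spread between these libraries, which may be technical. The series set out to study liver cancer cells that survive the edge of a microwave ablation, with sublethal heat as the model.

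Small heat shock proteins form large oligomers that hold unfolding proteins without using ATP, and pass them to HSP70 for refolding or, through HSPB8 and BAG3, to autophagy. CRYAB is best known from the eye lens and striated muscle, whereas HSPB1 is found in many tissues and in many carcinomas. HSF1 is held inactive by chaperones and is activated mainly at the protein level, by trimer formation and phosphorylation, when unfolded proteins draw these chaperones away. It then binds heat shock elements, inverted repeats of the letters GAA, in the promoters of HSP70, HSP40, small heat shock protein and BAG3 genes. HSF2 can form mixed trimers with it.

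Depth was 32219946 to 39689939 counts per library. NFS1 mRNA was used to check the knockdown label. Its level in CPM, the count scaled to the size of its library, spanned 71.2 to 75.7 over the 5 NC libraries. The 5 NFS1 libraries spanned 63.6 to 70.6 CPM, so the groups were apart by a small margin with the scaling described below. They overlapped in the deposited FPKM, where NFS1 library 1 stood at 25.43 and NC library 1 at 25.32. The mean was 72.5 CPM for NC and 66.1 for NFS1, but 92.1 for R-47, which carries the same labels as NC. NC thus differed more from R-47 than from NFS1 for this mRNA. Directions given for the knockdown rest on libraries labelled NFS1 knockdown with a small difference in the targeted mRNA, whose separation depended on the scaling. Markers of hepatocytes and liver cancer summed to 3375 to 7264 CPM over the 20 libraries, carried mainly by the keratins KRT8 and KRT18. ALB, the defining hepatocyte product, had a mean of 14.2 CPM in R-37 and 5.11 in R-47, and of 0.847 in NC and 0.630 in NFS1. HNF4A, a hepatocyte transcription factor on the same list, had 45.9, 55.4, 96.0 and 67.0 CPM in that order, and AFP, the fetal counterpart of ALB, had 4.30, 4.00, 5.16 and 3.66 CPM. For the tissues CRYAB is best known from, the 5 striated muscle markers in the table summed to 0 to 0.855 CPM. The 6 lens markers summed to 6.58 to 10.6 CPM, with CRYAA at 0 or 1 count in every library. The lens sum was carried mainly by BFSP1, with group means of 6.17 to 7.90 CPM. Of the other lists, glia markers summed to 62.7 to 209 CPM and endothelium markers to 11.4 to 58.4 CPM. Fibroblast and stellate markers summed to 17.6 to 56.7 CPM and leukocyte markers to 0.0252 to 0.412 CPM. CPM values below were scaled by the trimmed mean of M-values (TMM) over all 20 libraries, and compare 1 gene between libraries. FPKM values, which divide by gene length, compare genes with each other.

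In RefSeq's GRCh38.p14, CRYAB lies on the minus strand at chr11:111908564-111923740, HSPB1 at chr7:76302673-76304292, HSPB8 at chr12:119178931-119194746, BAG3 at chr10:119651380-119677819 and HSF2 at chr6:122399551-122433119, these 4 on the plus strand. These and HSF1 are protein-coding genes. The table of promoter windows held 4 of the 6, HSPB1, HSPB8, BAG3 and HSF2, each from 250 bases before to 50 bases after the RefSeq start. They were searched for the 2 core forms of a heat shock element, GAANNTTC and TTCNNGAA. Each form is its own reverse complement, so a match counts for both strands. Of 35116 windows in the table, 5.78% held GAANNTTC and 6.62% held TTCNNGAA in the 250 bases before the start, and 13.5% held either form in the whole window. HSPB1 had 1 match, 182 bases before its start. HSPB8 had 2 matches, 88 bases before the start and at base 5 of the transcript. BAG3 and HSF2 had no match in these windows, which says only that these letters are absent there. The sequences are shown because they carry, or lack, the letters that HSF1 is known to bind. They run 5′ to 3′ on the plus strand of GRCh38.p14, and capitals mark a match to GAANNTTC. For HSPB1 and BAG3 the bases before the first exon of GENCODE version 29 are given, and for HSPB8, whose window lies within an annotated exon, 30 bases around each match.
HSPB1, chr7:76302423-76302543: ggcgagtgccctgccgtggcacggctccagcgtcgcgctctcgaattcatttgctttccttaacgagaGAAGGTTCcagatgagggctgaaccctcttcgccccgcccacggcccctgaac
HSPB8, chr12:119178832-119178861: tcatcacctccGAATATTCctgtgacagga
HSPB8, chr12:119178924-119178953: aggagccagaaGAAGTTTCtaggcgcgcgt
BAG3, chr10:119651130-119651369: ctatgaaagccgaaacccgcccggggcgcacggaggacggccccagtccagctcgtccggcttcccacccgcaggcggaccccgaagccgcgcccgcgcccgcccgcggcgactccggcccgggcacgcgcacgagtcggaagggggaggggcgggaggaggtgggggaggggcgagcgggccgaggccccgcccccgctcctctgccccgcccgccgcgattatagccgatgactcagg
Among inducible genes searched the same way, HSPA1A held GAANNTTC 106 bases before its start, and HSPA6 held it 180 and 69 bases before its start. HSPA6 also held TTCNNGAA 74 bases before its start. DNAJB1 held GAANNTTC 77 and 47 bases before a start, and at base 2 from another start. HSPB3, a small heat shock protein gene outside the 6, held TTCNNGAA 242 bases before its start.

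CRYAB was nearly silent at 37 °C and was the least abundant of the 6 genes there. Its levels in the 5 R-37 libraries were 0.824, 0.906, 0.743, 1.08 and 1.07 CPM, from 26 to 34 counts each. In the 5 R-47 libraries they were 13.8, 19.0, 15.8, 18.9 and 17.9 CPM, from 504 to 674 counts each. Every R-47 library stood far above every R-37 library, and the spread within each group was narrow. The means were 0.925 ± 0.15 and 17.1 ± 2.24 CPM (SD, n = 5 each), a log2 fold change of 4.22 (SE 0.13), or 18.7-fold. This comparison chose the gene, so no test is attached to it. With each library left out in turn the log2 fold change was 4.15 to 4.29.

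The heated libraries of the second experiment stood higher still. CRYAB had 43.0, 48.3, 54.0, 62.5 and 61.9 CPM in NC and 64.2, 71.0, 71.7, 45.3 and 57.2 CPM in NFS1. All 5 NC libraries lay above all 5 R-47 libraries, although both groups are labelled WT and 47 °C. The NC mean of 53.9 ± 8.51 CPM was 3.19 times the R-47 level in the fit of those groups (log2 fold change 1.67, SE 0.10). Experiment and group cannot be told apart in this comparison, and it shares R-47 with the choice of the gene, so it too is a description. Differences between these groups were widespread, as 40.1% of 15080 genes were called higher and 39.6% lower in NC. NC and NFS1 overlapped for CRYAB. The order of the group means was thus R-37, R-47, NC and NFS1, with no overlap at the first pair of steps and overlap at the last.

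The share of CRYAB in the small heat shock protein mRNA differed widely between the groups, with HSPB1 first in each. Over 10 genes, CRYAB with HSPB1, HSPB2, HSPB3, CRYAA, HSPB6, HSPB7, HSPB8, HSPB9 and ODF1, CRYAB made up 0.153% of the summed FPKM in R-37, 2.44% in R-47, 7.80% in NC and 8.99% in NFS1. HSPB1 made up 94.3, 93.2, 88.1 and 86.5% in the same order, and HSPB8 most of the remainder. Per length, CRYAB stood at 0.163% ± 0.059 of the HSPB1 level in R-37, 2.62% ± 0.36 in R-47, 8.86% ± 0.62 in NC and 10.4% ± 1.10 in NFS1 (SD, n = 5 each). The largest share in R-37 was 0.245% and the smallest in R-47 was 2.15%, so the ratio within libraries separated the groups as the level did. Ranked by mean FPKM over all genes, CRYAB went from place 11613 in R-37 to 4601 in R-47, 1626 in NC and 1334 in NFS1. HSPB1 stayed between places 107 and 126.

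**Figure D1:**
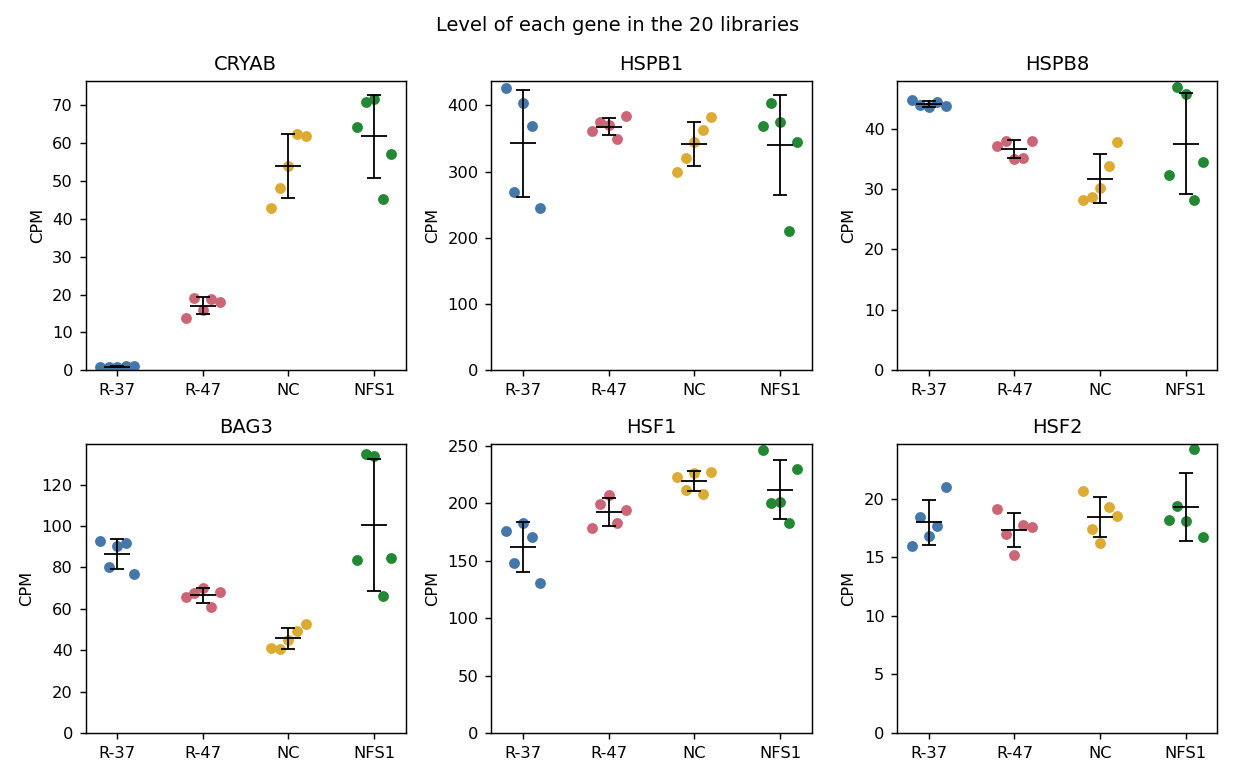
CPM of each of the 6 genes in the 20 libraries, 1 point per library, with the mean and SD of each group of 5 in black; every axis starts at 0. CRYAB is higher in R-47 than in R-37 and higher again in NC, and BAG3 is lowest in NC. NFS1 libraries 2 and 3 (points are in library order) are the highest for BAG3, HSPB8 and CRYAB.

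HSPB2, the small heat shock protein gene that lies within the annotated span of CRYAB on the opposite strand, had 0 to 4 counts in every library. The labels do not state the strand setting of the counting, so reads of overlapping genes could be exchanged between them, and at these counts few were assigned to HSPB2. The 5 nearest tested protein-coding genes on each side of CRYAB lay below it in both comparisons with R-47, and far below it in R-47 against R-37. In R-47 against R-37 their log2 fold changes were -0.51 to 0.58, with none called higher by edgeR and 2 called lower, DIXDC1 (-0.51) and ALG9 (-0.21), where 11.9% of all 14344 genes tested were called higher and 13.2% lower. PIH1D2, at 0.58, was the 1 neighbour above R-37 at an unadjusted p under 0.05. Between NC and R-47, 7 of the 10 were called higher in NC, among them C11orf1 (0.98), TIMM8B (0.79) and DIXDC1 (0.72), and SIK2 was lower (-0.30), against the 40.1% and 39.6% of all genes. All of these were below CRYAB's 1.67. The median over 735 tested genes of chromosome 11 in that comparison was 0.05, and CRYAB ranked 43 from the top. In NFS1 against NC, where CRYAB was at 0.22, 1 of the 10 was called higher, DIXDC1 (0.63), and 4 lower, TIMM8B (-0.47), DLAT (-0.40), PPP2R1B (-0.29) and NKAPD1 (-0.22), where 15.7% of all 15086 genes were called higher and 12.5% lower.

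**Figure D2:**
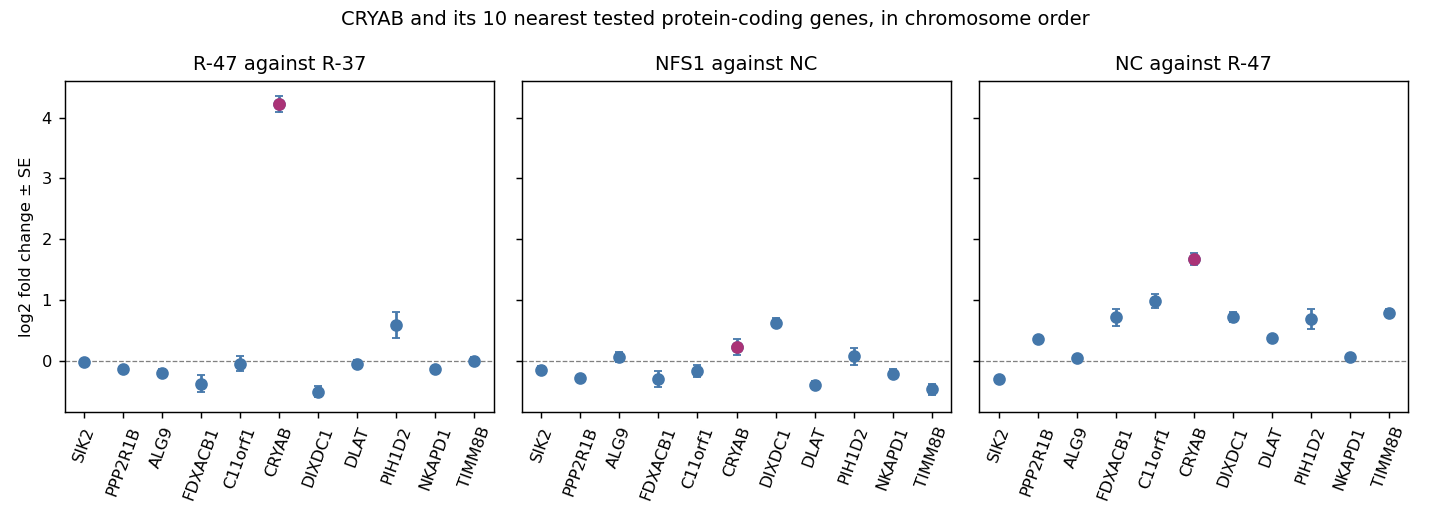
Log2 fold change with its SE for CRYAB (purple) and the 5 nearest tested protein-coding genes on each side, in chromosome order, in the 3 comparisons. CRYAB stands at 4.22 in R-47 against R-37, where its neighbours lie between -0.51 and 0.58.

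Of the 8 other genes counted here as small heat shock proteins or named with them, 4 had enough counts to be tested in each comparison. These were HSPB3, HSPB9 and HSPB11 throughout, with HSPB6 in both comparisons with R-47 and HSPB7 in NFS1 against NC. HSPB3, a muscle small heat shock protein, went the way of CRYAB in both comparisons with R-47, at far lower counts. Its counts per library were 0 to 7 for R-37, 11 to 38 for R-47, 31 to 77 for NC and 17 to 53 for NFS1. It was called higher in R-47 (log2 fold change 2.05, SE 0.47) and in NC against R-47 (1.06, SE 0.30), where its libraries overlapped. In NFS1 against NC it was at -0.50 (SE 0.29), whereas CRYAB was at 0.22. HSPB11, an intraflagellar transport protein named with this family, was called higher in R-47 by 0.23 (SE 0.07). HSPB6, which is abundant in heart and smooth muscle, had 20 to 67 counts per library in the first experiment and 4 to 13 in the second, and was called lower in NC against R-47 (-3.20, SE 0.33). HSPB9, known for its expression in testis, was not called in any of the 3 comparisons. The median of the 4 genes tested was 0.66 in R-47 against R-37 and, with HSPB7 in place of HSPB6, -0.29 in NFS1 against NC, against -0.01 and 0.02 over all genes tested. None of the 4 tested in NFS1 against NC was called there by edgeR or limma-voom, and HSPB7, a small heat shock protein of heart and muscle, was at 0.39 (SE 0.44). HSPB9 had an unadjusted p of 0.019 there and DESeq2 called 1 of the 4 lower.

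HSPB1 was the most abundant of the 6 genes in every group, at 391, 447, 475 and 487 FPKM in R-37, R-47, NC and NFS1. Its levels in R-37 were 426, 269, 404, 369 and 246 CPM, and in R-47 361, 374.5, 371, 349 and 384 CPM. The R-37 libraries thus spanned the whole R-47 range, and the log2 fold change of R-47 over R-37 was 0.11 (SE 0.12), or -0.14 (SE 0.037) with length and GC offsets. NC had 299 to 383 CPM with a median of 344, and NFS1 had 211 to 404 CPM with a median of 369. All neighbours in the order of the 4 group means overlapped. The low libraries were R-37 libraries 2 and 5 and NFS1 library 4, and these were also the low ones of HSF1, another gene of GC-rich transcripts. The transcripts used for GC content held 64.3% GC for HSPB1 and 64.7% for HSF1. In the same libraries, 1843 genes of at least 60% GC stood below 4691 genes of at most 45% GC, by 0.15, 0.41 and 0.54 on the log2 scale, a check chosen after the values were seen. NC library 1 followed this for HSPB1 alone. Its GC-rich genes stood 0.19 below, and it was the lowest of NC for HSPB1 at 299 CPM. Its HSF1 level of 223 CPM was not low within the NC range of 208 to 227 CPM. The part of this GC shift in the HSPB1 and HSF1 levels was not tested beyond the fits with length and GC offsets.

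HSPB8 varied little within each group of the first experiment. It had 44.8, 43.9, 43.5, 44.3 and 43.8 CPM in R-37 and 37.1, 38.0, 35.0, 35.1 and 37.9 CPM in R-47. Every R-47 library lay below every R-37 library, at a log2 fold change of -0.26 (SE 0.05), which shrank to -0.17 to -0.18 when libraries were scaled by their totals alone or compared in FPKM. NC had 28.2, 28.6, 30.2, 33.7 and 37.7 CPM. The NC range reached into that of R-47, and the log2 fold change of NC over R-47 was -0.19 (SE 0.07), or -0.01 with libraries scaled by their totals alone. In that comparison total scaling moved the same genes up by a median of 0.18, so HSPB8 moved with the scale.

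BAG3 was lower in the R-47 libraries than at 37 °C and lower again in NC. Its levels were 92.7, 80.2, 90.4, 91.6 and 77.0 CPM in R-37, and 65.7, 67.5, 70.2, 60.9 and 68.3 CPM in R-47. In NC they were 41.2, 40.4, 44.8, 49.1 and 52.7 CPM. None of these 3 groups overlapped another. The log2 fold change was -0.37 (SE 0.06) for R-47 against R-37 and -0.53 (SE 0.07) for NC against R-47. BAG3 and CRYAB, both known as targets of HSF1, were thus ordered in opposite directions over R-37, R-47 and NC. NC belongs to the other experiment, and in NC against R-47 the median over tested genes of BAG3's chromosome was -0.51, near BAG3 itself. Per length, BAG3 and HSPB8, whose proteins bind each other, were at similar levels, with a BAG3 to HSPB8 ratio of 1.42 in R-37, 1.32 in R-47, 1.05 in NC and 1.92 in NFS1.

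HSF2 mRNA varied little, whereas HSF1 mRNA differed more between the groups. HSF1, which lies on chromosome 8, had 176, 148, 182, 171 and 131 CPM in R-37, and 178, 200, 208, 183 and 194 CPM in R-47, with overlap at 1 R-37 library. The log2 fold change was 0.26 (SE 0.08), and 0.08 with length and GC offsets, so most of this difference depended on that correction. NC had 208 to 227 CPM and NFS1 183 to 246 CPM. The means were 162, 192, 219 and 212 CPM in R-37, R-47, NC and NFS1. Every NC library lay above every R-47 library, as for 33.1% of all genes, at a log2 fold change of 0.20 (SE 0.05). HSF1 had 63.4 FPKM in R-37 and 80.3 in R-47, against 5.55 and 5.68 FPKM for HSF2, so HSF1 mRNA was the more abundant of these factors. In NC and NFS1, HSF1 had 105 and 104 FPKM. HSF2 spanned 16.0 to 21.0 CPM for R-37, 15.2 to 19.1 CPM for R-47, 16.2 to 20.7 CPM for NC and 16.7 to 24.3 CPM for NFS1. The 4 groups overlapped, and the log2 fold change of R-47 over R-37 was -0.04 (SE 0.08). HSF4, the factor known from the lens, was also present, at 3.53 FPKM in R-37 and 4.21 in R-47, and was not called between them.

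No calls are given for the 6 genes in the comparisons with R-47. The libraries of R-47 lay wholly above those of R-37 for CRYAB and wholly below them for HSPB8 and BAG3, against 8.46% and 9.5% of all genes. Nothing is read from these counts, since the genes were chosen with this comparison known. For NC against R-47, the libraries of NC lay wholly above for CRYAB and HSF1 (33.1% of all genes) and wholly below for BAG3 (34.2% of all genes).

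**Figure D3:**
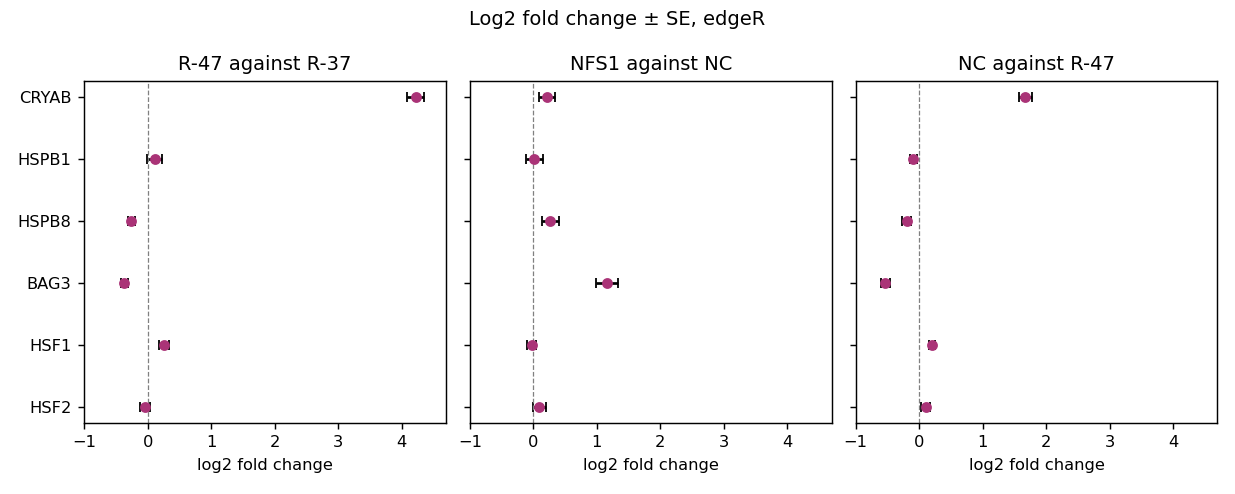
Log2 fold change with its SE for the 6 genes in the 3 comparisons, on one scale. CRYAB is at 4.22 and 1.67 in the comparisons with R-47, and BAG3 is at 1.17 in NFS1 against NC, where the other 5 genes lie between -0.03 and 0.27.

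NFS1 against NC was the comparison that used none of the libraries on which CRYAB was chosen, and it was tested by edgeR's quasi-likelihood test with Benjamini-Hochberg adjustment over 15086 genes. Among the 6 genes BAG3 was higher in NFS1 than in NC, and the other 5 did not pass the test. BAG3 had 83.4, 135, 134, 66.0 and 84.6 CPM in the NFS1 libraries, against 40.4 to 52.7 CPM in NC. Every NFS1 library lay above every NC library, and libraries 2 and 3 stood highest. NFS1 libraries 1 and 5 lay within the R-37 range of 77.0 to 92.7 CPM. NFS1 library 4 lay within the R-47 range of 60.9 to 70.2 CPM. Only NFS1 libraries 2 and 3 stood above all libraries of the first experiment. The log2 fold change was 1.17 (SE 0.17, 95% interval 0.79 to 1.54, adjusted p = 0.000239, edgeR), or 2.24-fold. Over all genes, 15.7% were called higher and 12.5% lower. The libraries of NFS1 lay wholly above those of NC for 11.4% of genes and wholly below for 9.66%.

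BAG3 lies on chromosome 10, whose genes as a whole were higher in NFS1 than in NC. The median log2 fold change over 485 tested genes of chromosome 10 was 0.50, with 353 called higher and 9 lower, against a median of 0.01 over the other chromosomes. All 10 nearest tested protein-coding genes of BAG3 were called higher, by 0.39 to 1.15. INPP5F, a phosphoinositide phosphatase, was at 1.15 and GRK5, the gene of a kinase that acts on G protein-coupled receptors, at 1.10, near BAG3's 1.17. BAG3 exceeded the chromosome's median by 0.66 and ranked 36 among the 485. In NC against R-47 the same chromosome had a median of -0.51, its 10 neighbours were all called lower, and BAG3 was at the median, 0.02 below it. In R-47 against R-37 the median was -0.04 and BAG3 was 0.32 below it. Set against the mean of NC, the median over 461 genes of chromosome 10 was higher by 0.48 to 0.55 in the R-37 libraries. It was higher by 0.47 to 0.54 in the R-47 libraries and by 0.41 to 0.55 in the NFS1 libraries. NC was thus the group that stood apart for chromosome 10, and NFS1 was near R-37 and R-47. The part of the chromosome-wide difference in the BAG3 result, and what produced it, was not tested.

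**Figure D4:**
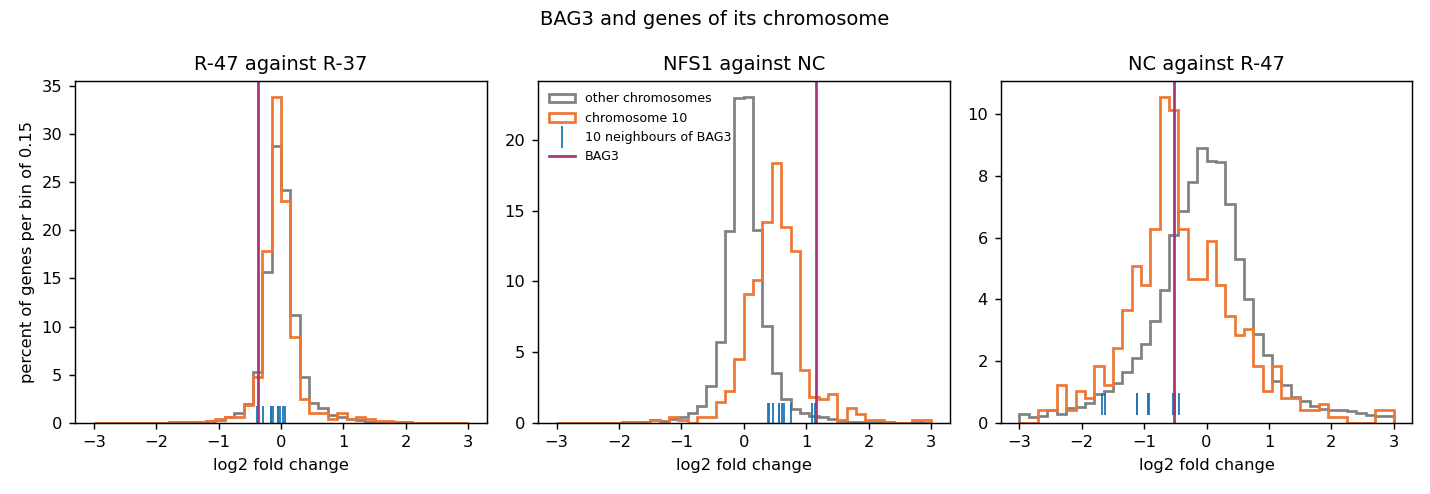
Percent of tested genes per bin of 0.15 in log2 fold change, for chromosome 10 (orange) and the other chromosomes (grey), in the 3 comparisons; blue ticks mark the 10 neighbours of BAG3 and the purple line BAG3, the vertical scale differs between panels, and genes beyond 3 in either direction are not drawn. Chromosome 10 is centred near 0.50 in NFS1 against NC and near -0.51 in NC against R-47, with BAG3 at 1.17 and -0.53.

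The height of BAG3 above its chromosome differed between NFS1 libraries. Set against the NC mean, BAG3 was higher by 0.87, 1.56, 1.55, 0.53 and 0.89 on the log2 scale in libraries 1 to 5. The median over 461 genes of chromosome 10 was higher by 0.41, 0.42, 0.42, 0.55 and 0.46. The chromosome's shift was thus alike in all 5 libraries, whereas BAG3 stood about a full log2 unit above it in libraries 2 and 3 and level with it in library 4. Without libraries 2 and 3, BAG3 was higher by 0.78 (adjusted p = 0.000483, edgeR) and the chromosome's median was 0.50, which left BAG3 0.28 above it. These splits by library were made after the values were seen.

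Libraries 2 and 3 of NFS1 also stood highest for the inducible genes of the heat shock response. HSPA6, a strictly inducible HSP70 gene, had 56.5, 248, 244, 22.3 and 82.6 CPM in NFS1 and 5.41, 6.09, 14.6, 29.8 and 38.9 CPM in NC. Its levels in R-37 and R-47 were 0.481 to 1.08 and 0.328 to 1.49 CPM, so the gene was near its unheated level in R-47 and above it in every library of the second experiment. HSPA1A had 208, 863, 832, 99.2 and 295 CPM in NFS1 and 42.4, 56.6, 91.5, 196 and 243 CPM in NC, and DNAJB1, an HSP40 gene, 272 and 282 CPM in NFS1 libraries 2 and 3 and 108 to 143 CPM in the other 8. HSPA1A and HSPA1B are near-identical in sequence, and reads may be shared between them. BAG3 followed the order of these genes: in NFS1 it was highest in libraries 2 and 3 and lowest in library 4, and in NC it was highest in libraries 5 and 4. HSPB8 was highest in the same libraries of each group, at 46.9 and 45.7 CPM in NFS1 libraries 2 and 3 and 37.7 and 33.7 CPM in NC libraries 5 and 4. CRYAB and HSPB1 were highest in these libraries too. CRYAB had 71.0 and 71.7 CPM in NFS1 libraries 2 and 3 and 61.9 and 62.5 CPM in NC libraries 5 and 4. HSPB1 had 404 and 376 CPM in the former and 383 and 363 CPM in the latter.

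**Figure D5:**
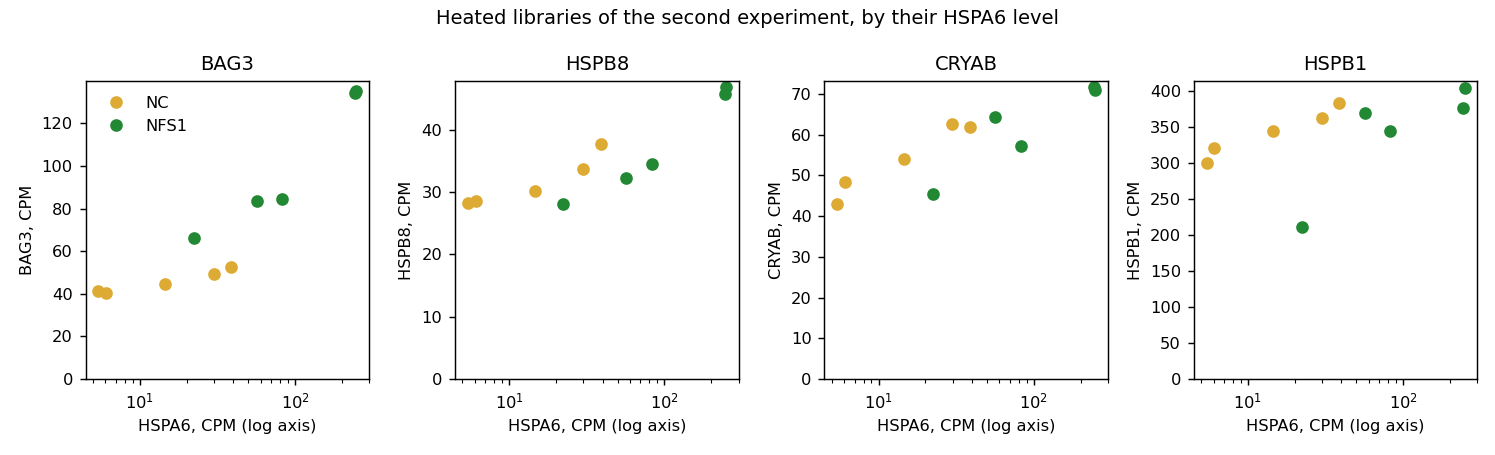
CPM of BAG3, HSPB8, CRYAB and HSPB1 against CPM of HSPA6 (log axis) in the 10 heated libraries of the second experiment, 1 point per library. At HSPA6 levels of 22.3 to 38.9 CPM, BAG3 stands at 66.0 CPM in an NFS1 library and at 49.1 to 52.7 CPM in NC libraries, whereas HSPB8 and CRYAB of that NFS1 library lie near the low end of the NC range.

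CRYAB was 0.22 higher in NFS1 on the log2 scale (SE 0.13, 95% interval -0.05 to 0.49, adjusted p = 0.215, edgeR). The groups overlapped, with NFS1 library 4 the lowest of its group at 45.3 CPM. Without that library the log2 fold change was 0.31 (adjusted p = 0.0163, edgeR), and with length and GC offsets over all libraries it was 0.30 (adjusted p = 0.0137, edgeR). Without libraries 2 and 3 it was 0.05 (adjusted p = 0.823, edgeR). CRYAB thus did not pass the threshold in the main fit of all libraries. Library 4 was the lowest and libraries 2 and 3 the highest of NFS1 for CRYAB. The direction of the shifts without them therefore followed from the libraries dropped, and these fits are no separate evidence of a difference.

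HSPB8 was 0.27 higher (SE 0.14, 95% interval -0.02 to 0.56, adjusted p = 0.160, edgeR). Under the same changes it was at 0.35 without NFS1 library 4 (adjusted p = 0.0185, edgeR) and 0.33 with length and GC offsets (adjusted p = 0.0259, edgeR). Without libraries 2 and 3 it was at 0.01 (adjusted p = 0.974, edgeR). Library 4 was the lowest and libraries 2 and 3 the highest of NFS1 for HSPB8 as well, so the same limit holds. HSPB1 differed by 0.02 (SE 0.13, 95% interval -0.27 to 0.31, adjusted p = 0.939, edgeR). HSF1 differed by -0.03 (SE 0.07, 95% interval -0.18 to 0.12, adjusted p = 0.797, edgeR) and HSF2 by 0.09 (SE 0.10, 95% interval -0.13 to 0.31, adjusted p = 0.543, edgeR). The sign of these last 3 changed with the setting, and the values are in the closing part. The intervals were wider for HSPB1 than for HSF1.

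The other genes of the pathway were taken from lists drawn up by role, and the counts stand against the shares of all genes called, 11.9% higher and 13.2% lower in R-47 against R-37, 15.7% and 12.5% in NFS1 against NC, and 40.1% and 39.6% in NC against R-47. Of 24 chaperone, co-chaperone and ubiquitin genes known as HSF1 targets, 21 were called lower and 1 higher in R-47 against R-37, with a median of -0.56. HSPA1A was lower by 1.24 and HSP90AA1, the inducible cytosolic HSP90, by 1.08. CRYAB's 4.22 thus stood beside lower levels of most genes with the same known regulator, a contrast that the choice of CRYAB had already used. In NFS1 against NC, 4 were called higher and 1 lower, with a median of 0.06. HSPA6 was higher by 2.82, HSPA1B by 2.26, HSPA1A by 1.90 and DNAJB1 by 0.67, and UBB was lower by 0.25. Without NFS1 libraries 2 and 3 none of the 24 was called higher and 2 were called lower by edgeR, with 1 higher at an unadjusted p under 0.05. These libraries were the highest for HSPA6, HSPA1A and DNAJB1, so the loss of their calls followed from the libraries dropped. A fit of fewer libraries can also lose calls, here and in the lists below. The shares of all genes given above are from the fits of all libraries, and nothing is read from the calls lost. Of the same 24, in NC against R-47, 10 were called higher and 8 lower, from HSPA6 at 4.09 and HSPA4L at 1.32 down to HSP90AB1 at -0.57 and HSPA8, the constitutive HSP70, at -1.39.

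Among 14 tested genes of other heat shock factors and their regulators, 1 was called higher and 1 lower in R-47 against R-37. These were HSF2BP, which binds HSF2, at 0.80 and the kinase gene GSK3B at -0.19. In NFS1 against NC, 3 were called higher and 1 lower. The deacetylase gene SIRT1 was at 0.35 and the acetyltransferase gene CREBBP at 0.16, and HSF2BP was at -0.65. Without NFS1 libraries 2 and 3 none was called higher by edgeR (2 at an unadjusted p under 0.05) and 1 was called lower. The list's median was 0.04 in the first of these comparisons and -0.01 in the second. Between NC and R-47, 6 were called higher in NC and 5 lower, with HSBP1L1 at 0.91, TTC5 at 0.54, the ubiquitin ligase gene FBXW7 at -0.58 and the mitotic kinase gene PLK1 at -1.31.

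Among 16 tested genes of the BAG family and of BAG3-dependent autophagy, 3 were called higher and 2 lower in R-47 against R-37. FLNC, a filamin and a client of that pathway, was higher by 0.65, and BAG2 and the 14-3-3 gene YWHAG were each lower by 0.27. In NFS1 against NC, where BAG3 was higher, 2 were called higher, TSC1 (0.25) and the autophagosome gene MAP1LC3B (0.21). Another 4 were called lower, among them FLNA (-0.75) and BAG1 (-0.47), which competes with BAG3 for HSP70. Without NFS1 libraries 2 and 3, none was called higher by edgeR (2 at an unadjusted p under 0.05) and 4 were lower. The list's median was -0.02 in R-47 against R-37 and -0.06 in NFS1 against NC. Between NC and R-47, 7 were called higher in NC and 6 lower. FLNC was higher by 2.71 and BAG4 by 0.62, and the autophagy receptor gene SQSTM1 was lower by 0.99 and the HSP70-bound ubiquitin ligase gene STUB1 by 0.58.

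The 6 genes for kinases of the p38 pathway and protein kinase D that act on small heat shock proteins gave 1 call in each direction in R-47 against R-37, MAPK11 at 0.38 and PRKD1 at -0.71. In NFS1 against NC only MAPKAPK3 was called, at -0.19, a call lost without libraries 2 and 3. All 6 were called between NC and R-47, where most genes of any kind were (40.1% higher and 39.6% lower), and of these PRKD1 (1.25) and MAPKAPK3 (0.66) were called higher and 4 lower, with MAPKAPK5 at -0.73 and MAPKAPK2 at -0.65. Of 12 clients and partners of CRYAB, 9 were tested in R-47 against R-37 and none was called by edgeR. At an unadjusted p under 0.05, 1 was higher (BAX, which drives apoptosis, at 0.19) and 1 lower (the cyclin gene CCND1, at -0.10), and DESeq2 and limma-voom each called 1 higher. Of 10 tested in NFS1 against NC, none was called higher by edgeR, also at an unadjusted p under 0.05 or by DESeq2, and 4 were lower, among them FBXO4 (-0.48), whose protein forms a ubiquitin ligase with CRYAB, and the intermediate filament genes VIM (-0.38) and KRT8 (-0.28). In NC against R-47, 6 were called higher and 3 lower. VIM was higher by 4.40, from 10.4 to 219 CPM, and GFAP by 1.98 at under 0.4 CPM, whereas BAX was lower by 0.93 and KRT8 by 0.49. VIM, the intermediate filament protein of mesenchymal cells and a CRYAB client, thus differed more than CRYAB itself between these groups that carry the same labels.

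The genes whose 4 group means were most like those of CRYAB were found by the root mean square difference between group means of log2 CPM, each gene centred on its own mean. Among 15910 genes they were TDRG1 (0.42), CPA4 (0.57), KLK6 (0.60), ALOXE3 (0.64) and FAM86B2 (0.66). KLK6 encodes a secreted serine protease, CPA4 a carboxypeptidase and ALOXE3 a lipoxygenase of the epidermis. All were rarer than CRYAB. TDRG1 had 0 to 1 count per R-37 library and 17 to 41 per R-47 library, and ALOXE3 had 3 to 11 and 16 to 53. Their place in R-37 depended on the count added before the logarithm, and with 2 in place of 0.5 the fifth gene was another. For HSPB8 the nearest were MTRR (0.010), FXR1 (0.017), ZNF708, GCC2 and ZFP69B. HSPB8 varied little over the groups, so many genes lay close to it.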

How the data were processed

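The authors deposited 1 table of counts per gene and 1 table of FPKM for the same genes and 20 samples. The submitters' processing notes name fastp, HISAT2, HTSeq and the build hg38, with no version, annotation or strand setting. The deposited counts are not normalised, and the deposited FPKM are the count over gene length and library total, and carry no further scaling. Each comparison used its 2 groups: genes were kept by edgeR's filterByExpr (minimum count 10, total 15), scaled by TMM and tested by the quasi-likelihood test, with Benjamini-Hochberg adjustment over all genes at 0.05. A call is an adjusted p under 0.05. SE is the log2 fold change over the square root of F. CPM levels used TMM over all 20 libraries. The 6 genes, the gene lists and the settings were chosen with earlier results of these data known. Genes named from a list are the 2 called in each direction with the largest log2 fold change, and some genes under this rule are not reported here. INPP5F, GRK5, HSF4, HSPB9, BAX and CCND1 in R-47 against R-37, and KRT8 in NFS1 against NC were named after their values were seen. Sequences are from RefSeq (GRCh38.p14), to which 94.9% of symbols matched, and GC content from GENCODE transcripts, known for 88.1 to 90.6% of tested genes. The test code was run on simulated data, where the fitted fold changes and the share of false calls met limits that were chosen after a first limit, on the share of changed genes recovered, had not been met. Alternatives were scaling by library size alone or DESeq2 size factors, a minimum count of 50 or none, limma-voom, DESeq2, 1 fit of all 20 libraries, a replicate block, length and GC offsets, limma on log2(FPKM + 1) with and without a filter or log2(FPKM + 0.1), each library left out, NFS1 libraries 2 and 3 left out, and NC library 1 with NFS1 library 4 left out. Software was Python 3.11.15 with matplotlib 3.10.9, numpy 2.4.6 and pandas 2.3.3, and R 4.3.3 with DESeq2 1.42.0, limma 3.58.1 and edgeR 4.0.16.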

Additional observations from a re-analysis of the deposited data

How the results depend on the processing

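BAG3 was called higher in NFS1 against NC in every setting run, at log2 fold changes of 0.78 to 1.28. CRYAB and HSPB8 missed the threshold there, but passed it with length and GC offsets (0.30 and 0.33) and without NFS1 library 4 (0.31 and 0.35). They also passed without NC library 1 and NFS1 library 4 together (0.24, adjusted p = 0.0249, and 0.31, adjusted p = 0.0296, edgeR). NFS1 library 4 was the lowest of its group for both genes, so leaving it out alone raised the difference by construction. The small difference in HSPB1 changed sign with limma-voom (-0.014), all 20 libraries in 1 fit (-0.0014), the replicate block (-0.011) and without NFS1 libraries 2 and 3 (-0.14), and ranged from -0.067 to 0.15 as each library was left out. HSF1 changed sign with length and GC offsets (0.020), without NFS1 libraries 2 and 3 (0.010) and without NC library 1 and NFS1 library 4 (0.024), and ranged from -0.092 to 0.019 over single libraries left out. HSF2 ranged from -0.0043 to 0.14. Leaving out single libraries gave 0.14 to 0.31 for CRYAB, 0.16 to 0.35 for HSPB8 and 1.02 to 1.28 for BAG3. The number of genes called lower went from 1881 to 3138 with length and GC offsets and to 1147 without NFS1 libraries 2 and 3. The cause was not tested.

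In R-47 against R-37, library size alone gave HSPB8 -0.18 with 2977 genes higher and 1013 lower. Length and GC offsets gave HSPB8 -0.36, BAG3 -0.47 and HSF1 0.076, and turned HSPB1 from 0.11 to -0.14. Limma on log2(FPKM + 1) gave CRYAB 2.99, since the added 1 exceeds its FPKM in R-37, HSPB8 -0.17 and 839 genes lower, and without the filter 2608 higher and 827 lower. With 0.1 added HSPB8 was -0.18 and 841 genes were lower. In NC against R-47, library size alone gave HSPB1 0.089, HSPB8 -0.012, BAG3 -0.35, HSF1 0.38 and HSF2 0.28. Length and GC offsets gave HSPB1 -0.37. Limma on log2(FPKM + 1) gave HSPB1 0.083, HSPB8 -0.020, BAG3 -0.34, HSF1 0.38 and HSF2 0.24, with 3741 genes lower under the filter, and with 0.1 added 0.083, -0.022, -0.35, 0.38 and 0.28, with 3734 lower. CRYAB stayed between 1.59 and 1.85 in that comparison.

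The replicate numbers did not pair the libraries, since deviations of same-numbered libraries correlated at -0.22 to 0.15. With the number as a replicate block, BAG3 was 1.11 (adjusted p = 0.00213, edgeR) and CRYAB 0.22 (adjusted p = 0.317, edgeR), with 1733 genes higher and 1335 lower. Depth limits CRYAB in R-37, at 26 to 34 counts per library, and HSPB2, HSPB3, HSPB6, HSPB7, HSPB9 and CRYAA throughout.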
